A study of Mus musculus with 4 samples.

Results

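The nuclear genes of the mitochondrial respiratory chain were followed in 4 RNA libraries of mouse bone marrow derived macrophages. Members were chosen by symbol: names that start with Ndufa, Ndufb, Ndufc, Ndufs or Ndufv (complex I), with Sdh followed by a to d (complex II), with Uqcr (complex III), with Cox4, Cox5, Cox6, Cox7 or Cox8 (complex IV) or with Atp5 (complex V). A total of 92 of the 22026 symbols matched. Averaged over the 4 libraries, 88 of them reached 1 FPKM (a fragment count divided by transcript length and library size). They numbered 41, 6, 8, 16 and 17 in complexes I to V. The other 4, Cox7b2, Cox8b, Cox8c and Ndufa4l2, were listed at 0 in every library; the lowest member inside the rule, Cox4i2, had a mean of 1.19 FPKM. The prefixes also catch genes that are not subunits of the mature complexes, among them 7 assembly factors (Ndufaf1 to Ndufaf4, Sdhaf1, Sdhaf2 and the supercomplex factor Cox7a2l), and Cox4nb, Atp5s and Atp5sl, which are named alike.

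The control group (WT) consisted of 2 libraries labelled wildtype control, and the other group (RBP-J KO) of 2 libraries with the genotype Rbpj f/f;LysM cre, all on C57BL/6. LysM is the Lyz2 gene, whose promoter drives Cre in myeloid cells, so that Rbpj, the DNA-binding partner of Notch receptors, is deleted in that lineage. Marrow came from mice of 8 weeks, and the cells grew for 3 days in CMG14-12 supernatant with M-CSF equivalent to 20 ng/ml. Whether the controls carried the Cre or the floxed alleles, and whether any sample was pooled, is not given in the sources used here, nor do the labels state that replicates came from separate mice, so that the p-values reflect no more than the spread among these 4 libraries.

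As a check of the labels, Rbpj had 355 FPKM in WT against 51.5 FPKM in RBP-J KO of replicate 1, and 573 against 77 FPKM in replicate 2. The libraries of replicate 1 held Ddx3y at 174 to 193 FPKM and no Xist, and those of replicate 2 held Xist at 268 to 290 FPKM and no Ddx3y, so that replicates 1 and 2 of a group came from different mice. The replicate number thus separates the libraries by these sex-linked genes and by the layout of their tables. Differences are therefore given inside each replicate number as well. Macrophage markers summed to between 14564 and 19140 FPKM. Neutrophil markers, 14 of 15 measured, summed to 7462 and 388 FPKM in WT replicates 1 and 2, against 8881 and 1253 FPKM in those of RBP-J KO. Markers of dendritic cells, B cells, T and NK cells, red cells, mast cells and stroma summed to at most 45.4 FPKM each, with Cd3d, Ncr1, Alas2, Klf1, Dcn and Pdgfra at 0 throughout. Read depth is unknown.

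The respiratory chain passes electrons from NADH (complex I) and succinate (complex II) through ubiquinone to complex III, and from there through cytochrome c to complex IV, which reduces oxygen. Complexes I, III and IV pump protons, and complex V, the ATP synthase, uses the gradient to make ATP. In macrophages the balance between this chain and glycolysis shifts with activation. Some subunits are encoded in mitochondrial DNA. No symbol with the mt- prefix of these genes was listed, so they were not analysed here. The nuclear factors NRF1, GABP (an ETS factor) and YY1 are known to bind promoters of the nuclear genes.

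Motifs of these factors were more frequent in promoters of the members than in all promoters. The motif of RBP-J was about as frequent in both. RefSeq windows of 300 bases (250 before to 50 after the gene start, build GRCm38.p6) were found for 74 of the 88 members, 3 of them through an older symbol, in 80 windows. Members without a listed window include Cox4i1, Cox4i2, Cox6a2, Sdhc and Uqcrc2. On either strand, the NRF1 motif GCGCANGCG was in 27.5% of member windows and in 6.24% of all 32817 windows. The ETS motif CCGGAAG was in 23.8% against 8.86%, and the YY1 motif AANATGGCG in 16.2% against 2.37%. The motif GTGGGAA, read by RBP-J, was in 5% of member windows (Atp5d, Atp5k, Cox7c and Ndufb2) against 6.39% of all, and the TATA box TATAAA in 7.5% against 13.6%. The median GC content was 58.8% in member windows and 52.7% in all, and motif shares were not adjusted for it.

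The 4 windows below are shown 5′ to 3′ on the coding strand with matches to the 5 motifs in capitals. Sdha (chr13:74350191-74350490, minus strand) is shown for its 3 NRF1 matches, at bases 153 to 161, 196 to 204 and 241 to 249. Atp5k (chr5:108434350-108434649, minus strand) is shown because it has an RBP-J match at bases 149 to 155 beside overlapping NRF1 matches at 201 to 209 and 202 to 210 and an ETS match at 263 to 269. Cox7a1 (chr7:30183921-30184220, plus strand) and Ndufaf2 (chr13:108158576-108158875, minus strand) hold none of the 5 and belong to the members with the largest differences below.
Sdha: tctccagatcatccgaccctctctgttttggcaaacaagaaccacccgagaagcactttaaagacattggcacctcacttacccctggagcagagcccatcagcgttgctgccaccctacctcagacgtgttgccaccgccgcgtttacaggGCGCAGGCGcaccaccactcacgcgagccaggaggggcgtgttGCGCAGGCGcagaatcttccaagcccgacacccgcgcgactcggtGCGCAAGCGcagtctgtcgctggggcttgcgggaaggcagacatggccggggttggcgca
Atp5k: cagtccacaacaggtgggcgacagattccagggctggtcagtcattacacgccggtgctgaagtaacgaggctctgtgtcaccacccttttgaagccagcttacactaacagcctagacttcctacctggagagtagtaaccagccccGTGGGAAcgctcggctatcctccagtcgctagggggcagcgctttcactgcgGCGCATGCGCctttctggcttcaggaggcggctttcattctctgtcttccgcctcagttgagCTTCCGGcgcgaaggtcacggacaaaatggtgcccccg
Cox7a1: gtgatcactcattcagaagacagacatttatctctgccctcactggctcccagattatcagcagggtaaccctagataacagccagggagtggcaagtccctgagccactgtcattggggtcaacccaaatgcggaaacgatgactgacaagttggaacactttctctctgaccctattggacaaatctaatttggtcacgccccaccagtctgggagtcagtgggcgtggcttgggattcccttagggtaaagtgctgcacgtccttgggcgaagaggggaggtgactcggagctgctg
Ndufaf2: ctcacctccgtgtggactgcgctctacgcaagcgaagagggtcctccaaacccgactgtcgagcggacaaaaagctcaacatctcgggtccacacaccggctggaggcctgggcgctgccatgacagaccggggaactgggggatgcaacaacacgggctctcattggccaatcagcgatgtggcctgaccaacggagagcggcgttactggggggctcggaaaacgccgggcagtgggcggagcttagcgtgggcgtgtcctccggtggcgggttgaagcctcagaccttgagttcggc
The 4 members with the RBP-J motif had a median log2 difference between RBP-J KO and WT of -0.13 in replicate number 1 and -0.10 in number 2, beside -0.04 and -0.17 for the 70 members without it. The 21 members with the NRF1 motif had -0.14 and -0.17, beside -0.04 and -0.17 for the other 53.

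No respiratory chain transcript passed the test, and most differences between RBP-J KO and WT were small: by limma with Benjamini-Hochberg adjustment over 11851 genes, 0 of 88 were past an adjusted p of 0.05 (percent of all genes called: 0), each with an adjusted p of 0.999 or above, and the smallest over all genes was 0.294. Rbpj, the deleted gene, was itself not past the threshold (log2 difference -2.82, limma unadjusted p = 0.00069, adjusted p = 0.457). The absence of calls among the members therefore says little about them. At an unadjusted p under 0.05 there was 1 member, Ndufaf2, lower in RBP-J KO (2.24% of all genes lower and 2.19% higher). Of the 88 members, 50 (56.8%) were within 1.2-fold in both replicate numbers, a limit set with the values known. The background was 35% of all genes tested and 40.4% of the 4412 genes that averaged 100 FPKM or more. Only 1 member, Cox7a1, was lower by at least 1.5-fold in both replicate numbers (background 3.63%), and 0 were higher (background 3.86%).

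Small differences leaned downwards. In both replicate numbers 49 members were lower in RBP-J KO (55.7%; background 34.1%) and 4 higher (4.55%; background 25.1%), while 34 had opposite signs (background 39.4%). Among the genes that averaged 100 FPKM or more, 39.4% were lower and 22.4% higher in both numbers. The 4 higher were Cox5a, Ndufa6, Ndufc2 and Uqcrc2. Both RBP-J KO libraries lay below both WT libraries for 20 members (22.7%), close to the background of 18.2% of all genes and 21.4% of genes that averaged 100 FPKM or more. They lay above them for 2, Ndufa6 and Uqcrc2 (2.27%; backgrounds 11.7% and 9.29%). The median log2 difference of the members, on the log2(FPKM + 1) scale, was -0.11 over all libraries, -0.06 in number 1 and -0.18 in number 2, beside -0.05, -0.05 and -0.02 for all genes tested. The size of the members' median moved when single libraries were left out or the scaling was changed. Without WT replicate 2 the median was 0.00 (all genes -0.10), and without WT replicate 1 it was -0.24 (all genes 0.01). It was -0.07 without RBP-J KO replicate 1 (all genes -0.09) and -0.18 without RBP-J KO replicate 2 (all genes -0.01). Without WT replicate 2, or without RBP-J KO replicate 1, the median of the members was thus not below that of all genes. Such runs leave the groups unequal in replicate number, so the replicate difference enters them and cannot be told apart from the genotype difference. From replicate 1 to replicate 2, WT differed by a median log2 of 0.21 for the members and -0.12 for all genes tested. Over all libraries 86.4% of the members had a negative difference. After upper-quartile scaling this was 65.9% (median -0.05, all genes 0.01), and after quantile normalization 69.3% (median -0.04, all genes -0.01). The same shares over all genes were not taken, so these alone show no lean beyond that of all genes. Inside numbers 1 and 2, without scaling, 61.4% and 88.6% of the members were lower, against 55.6% and 52.6% of all genes tested.

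As a share of each library's summed FPKM, the members made up 1.62% in WT and 1.57% in RBP-J KO of number 1, and 1.99% and 1.84% in number 2. The replicate number moved this share more than the genotype did. Both numbers also differed in the marker lists: proliferation genes had a median log2 difference of -1.39 in number 1 and 0.14 in number 2, and neutrophil markers 0.27 and 1.88. Their part in the members' differences was not tested. In such bulk samples fewer cells of a type and less RNA per cell cannot be told apart.

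**Figure D1:**
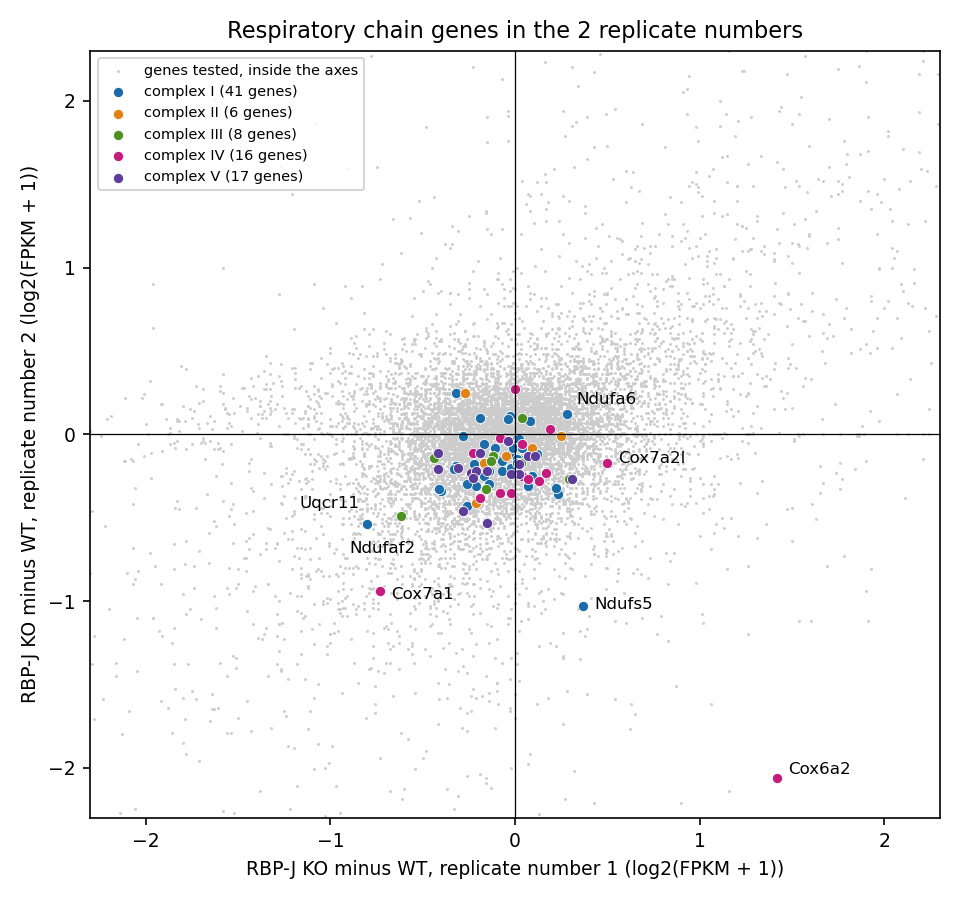
Each coloured point is 1 of the 88 members, with its RBP-J KO minus WT difference on the log2(FPKM + 1) scale in replicate number 1 (x axis) and number 2 (y axis); grey points are all genes tested that lie inside the axes. Most members lie close to the origin and below the horizontal line, with Cox7a1, Ndufaf2 and Uqcr11 to the lower left and Cox6a2 and Ndufs5 to the lower right.

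The sizes of the differences were not shared between the replicate numbers. Across the 88 genes the differences in number 1 and number 2 had a Pearson r of -0.29, and across the 74 structural subunits without tissue isoforms 0.02, a description over genes that share their libraries. Member levels themselves were ordered alike in all libraries, with r = 0.98 between WT replicates and 0.99 between WT and RBP-J KO of either number. From replicate 1 to replicate 2, the members differed by a median log2 of 0.21 in WT and 0.08 in RBP-J KO. All genes tested differed by -0.12 and -0.08. For 50 of 88 members the difference between the WT replicates was larger than the genotype difference in either number. The same count over all genes was not taken, so it shows no trait of the members. The SD of the log2 difference between WT replicates was 0.40 over the members and 0.80 over all genes tested. Transcript length, from GENCODE M21, had r = -0.35 with the difference between WT replicates and -0.08 with that between RBP-J KO replicates over the 88 members.

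Complex I, the NADH dehydrogenase, had a median difference of -0.10 over its 41 members (-0.07 in number 1, -0.16 in number 2). In both numbers 22 were lower (53.7%, background 34.1%) and 2 higher (4.88%, background 25.1%). Ndufa4, its highest member by symbol and now counted as a subunit of complex IV, was at 888 and 936 FPKM in WT replicates 1 and 2, against 789 and 789 FPKM in RBP-J KO. Ndufb8, a membrane arm subunit, was at 730 and 842 FPKM in WT against 695 and 722 FPKM in RBP-J KO. For both genes the RBP-J KO libraries lay below the WT libraries, by less than 1.2-fold.

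Ndufaf2, an assembly factor that occupies late intermediates of complex I, had the smallest p among the members. It was at 83.2 and 60.8 FPKM in WT against 47.2 and 41.4 FPKM in RBP-J KO, a log2 difference of -0.67 (SE 0.25, limma unadjusted p = 0.0455, adjusted p = 0.999). Its groups did not overlap. Ndufaf3, another assembly factor, was 1.32-fold and 1.27-fold lower in numbers 1 and 2, at 58.8 and 76.8 FPKM in WT against 44.4 and 60.5 FPKM in RBP-J KO, with overlapping groups. Ndufaf1 and Ndufaf4 had opposite signs in the 2 numbers, so that the assembly factors did not share a direction.

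Ndufa6, an accessory subunit of the LYR family, went the other way. It was at 470 and 435 FPKM in WT against 569 and 471 FPKM in RBP-J KO, a log2 difference of 0.20 (SE 0.19, limma adjusted p = 0.999), and its groups were just separated. Ndufc2 was 1.06-fold higher in both numbers, at 358 and 425 FPKM in WT against 379 and 451 FPKM in RBP-J KO. Ndufs5, picked with its values known, had 100.3 FPKM in WT against 130 FPKM in RBP-J KO of number 1, and 161 against 78 FPKM in number 2, with no direction common to both.

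Complex II, succinate dehydrogenase, is shared with the citric acid cycle and is wholly encoded in the nucleus. Its 6 members had medians of -0.11 and -0.10 in the 2 numbers. Sdha, the flavoprotein, was at 649 and 646 FPKM in WT against 625 and 591 FPKM in RBP-J KO. Sdhd, a membrane anchor, was at 621 and 718 FPKM in WT against 553 and 636 FPKM in RBP-J KO. The groups of Sdha were separated by a narrow margin and those of Sdhd overlapped. Sdhc, the other anchor, was at 543 and 738 FPKM in WT against 469 and 556 FPKM in RBP-J KO (log2 difference -0.31, SE 0.24, limma adjusted p = 0.999), also with overlap. Sdhb, the iron-sulfur subunit, was 1.19-fold higher in number 1 and 1.01-fold lower in number 2.

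Complex III, the cytochrome bc1 complex, had medians of -0.13 and -0.17. In both numbers 5 of 8 members were lower (62.5%, background 34.1%) and 1 higher (12.5%, background 25.1%). Uqcr11, the smallest accessory subunit, was at 261 and 471 FPKM in WT against 170 and 335 FPKM in RBP-J KO. It was 1.54-fold and 1.41-fold lower inside the numbers. The difference between the replicate numbers was larger, and the groups overlapped (log2 difference -0.56, SE 0.46, limma adjusted p = 0.999). With the replicate number as a block in limma the adjusted p of Uqcr11 was 0.225. The difference of Uqcr11 was -0.07 without RBP-J KO replicate 1 and -1.04 without RBP-J KO replicate 2. These runs also carry the difference between replicate numbers, which was 0.85 between the WT libraries. Inside numbers 1 and 2 the log2 difference of Uqcr11 was -0.62 and -0.49. Uqcr10 was at 383 and 663 FPKM in WT against 343 and 529 FPKM in RBP-J KO. Uqcrc1, a core protein, differed less than Uqcr11, at 517 and 560 FPKM in WT against 475 and 511 FPKM in RBP-J KO. Uqcrc2, the other core protein, was at 467 and 435 FPKM in WT against 479 and 467 FPKM in RBP-J KO (log2 difference 0.07, SE 0.17, limma adjusted p = 0.999). Uqcrh, the hinge protein, was at 550 and 628 FPKM in WT against 563 and 559 FPKM in RBP-J KO.

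**Figure D2:**
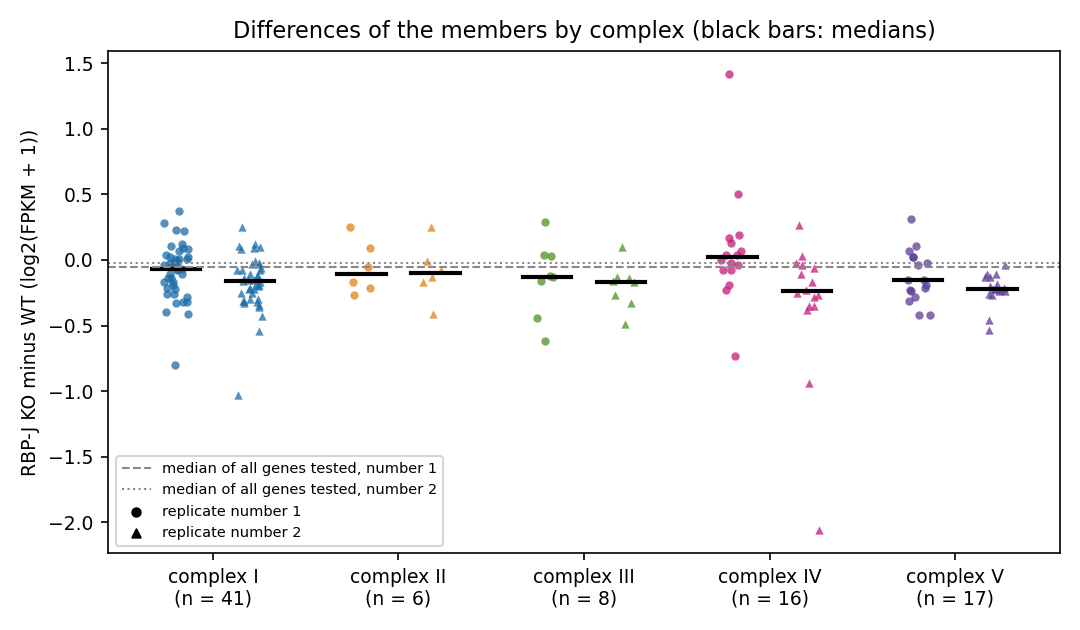
RBP-J KO minus WT on the log2(FPKM + 1) scale for each member (points) by complex, with circles for replicate number 1, triangles for number 2, black bars for medians and grey lines for the medians of all genes tested. The medians in number 2 lie between -0.24 (complex IV) and -0.10 (complex II), and the lowest point is Cox6a2.

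Complex IV, cytochrome c oxidase, differed most between the replicate numbers, with a median of 0.02 in number 1 and -0.24 in number 2. Of its 16 members 7 were lower (43.8%, background 34.1%) and 1 higher (6.25%, background 25.1%) in both. The share lower was near the 39.4% of genes that averaged 100 FPKM or more. Cox4i1, the ubiquitous form of the regulatory subunit Cox4, was at 1733 and 2398 FPKM in WT against 1786 and 2012 FPKM in RBP-J KO. Cox6a1 was at 1119 and 1777 FPKM in WT against 1062 and 1398 FPKM in RBP-J KO. In both genes the 2 WT libraries were farther apart than WT and RBP-J KO of the same number. Cox7b, a small membrane subunit, was at 390 and 460 FPKM in WT against 341 and 352 FPKM in RBP-J KO (log2 difference -0.29, SE 0.19, limma adjusted p = 0.999), without overlap. Cox5a was at 1088 and 908 FPKM in WT against 1241 and 925 FPKM in RBP-J KO.

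Subunits of complex IV with tissue-restricted copies were read almost wholly from the ubiquitous copy. Cox4i1 made up at least 99.9% of the FPKM of the Cox4 pair in every library and Cox6a1 at least 98.9% of the Cox6a pair. The share of Cox6b1 in its pair was at least 99.4%. Cox7a2 held 95.2% and 91.6% of the Cox7a pair in WT, and 97.3% and 94.6% in RBP-J KO. Its partner Cox7a1, the form of heart and skeletal muscle, had the most negative difference of all members. Cox7a1 was at 24.1 and 50.6 FPKM in WT against 14.2 and 26 FPKM in RBP-J KO, 1.66-fold lower in number 1 and 1.92-fold lower in number 2 (log2 difference -0.83, SE 0.49, limma adjusted p = 0.999). RBP-J KO replicate 2 lay just above WT replicate 1, so that the groups overlapped. Leaving out 1 library moved the difference of Cox7a1 to between -1.35 (without WT replicate 1) and -0.31 (without WT replicate 2). These runs also carry the difference between replicate numbers, which was 1.04 between the WT libraries. Inside numbers 1 and 2 the log2 difference of Cox7a1 was -0.73 and -0.94. Cox6a2, the muscle form of Cox6a, went opposite ways, with 3.93 FPKM in WT against 12.2 FPKM in RBP-J KO of number 1, and 17.7 against 3.47 FPKM in number 2. Cox6b2, the testis form, stayed between 5.74 and 7.37 FPKM, and Cox4i2, the lung and hypoxia form, was at 0 in number 1 and at 2.05 and 2.69 FPKM in number 2. Of the ubiquitous partners, Cox6b1 was 1.01-fold lower in number 1 and 1.28-fold lower in number 2. Cox7a2 was at 480 and 553 FPKM in WT against 505 and 459 FPKM in RBP-J KO, higher in number 1 and lower in number 2, and Cox8a was 1.12-fold higher and 1.17-fold lower.

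Complex V, the ATP synthase, had the most negative medians over all libraries (-0.18), at -0.15 in number 1 and -0.22 in number 2. Of its 17 members 12 were lower (70.6%, background 34.1%) and 0 higher (background 25.1%) in both numbers. All 17 were lower in number 2, where 88.6% of all members and 52.6% of all genes tested were lower. Atp5b, the catalytic beta subunit and the highest member of the list, was at 2643 and 2587 FPKM in WT against 2134 and 2257 FPKM in RBP-J KO (log2 difference -0.25, SE 0.19, limma adjusted p = 0.999). Its groups did not overlap. Atp5o, the stalk subunit that confers oligomycin sensitivity, was at 545 and 513 FPKM in WT against 466 and 427 FPKM in RBP-J KO (log2 difference -0.25, SE 0.18, limma adjusted p = 0.999), likewise without overlap. Atp5s, an accessory factor outside the mature enzyme, was at 16.5 and 16.5 FPKM in WT against 13.4 and 11.8 FPKM in RBP-J KO. Atp5k, subunit e of the membrane part, is the gene with the RBP-J motif shown above, chosen for that motif after its values were seen. It was at 375 and 504 FPKM in WT against 337 and 350 FPKM in RBP-J KO, a 1.11-fold and a 1.44-fold difference. Its log2 difference of -0.34 was the most negative of the 4 members with the motif. The others, Atp5d, Ndufb2 and Cox7c, had -0.15, -0.10 and -0.05, with overlapping groups. A link between motif and difference was not tested.

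Subunit c, which forms the rotating ring of the ATP synthase, is encoded by 3 genes that differ mainly in the import signal of the precursor. Atp5g3 supplied 85.2% and 82.1% of their summed FPKM in WT, and 82.6% and 81.1% in RBP-J KO. Atp5g3 was at 2168 and 2002 FPKM in WT against 1625 and 1726 FPKM in RBP-J KO (log2 difference -0.31, SE 0.19, limma adjusted p = 0.999), with both RBP-J KO libraries below both WT libraries. Atp5g1 was at 174 and 191 FPKM in WT against 130 and 177 FPKM in RBP-J KO, with overlap. Atp5g2 was 1.05-fold higher in number 1 and 1.09-fold lower in number 2. The order of the 3 genes, Atp5g3 far above Atp5g2 and Atp5g1, was the same in all libraries.

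**Figure D3:**
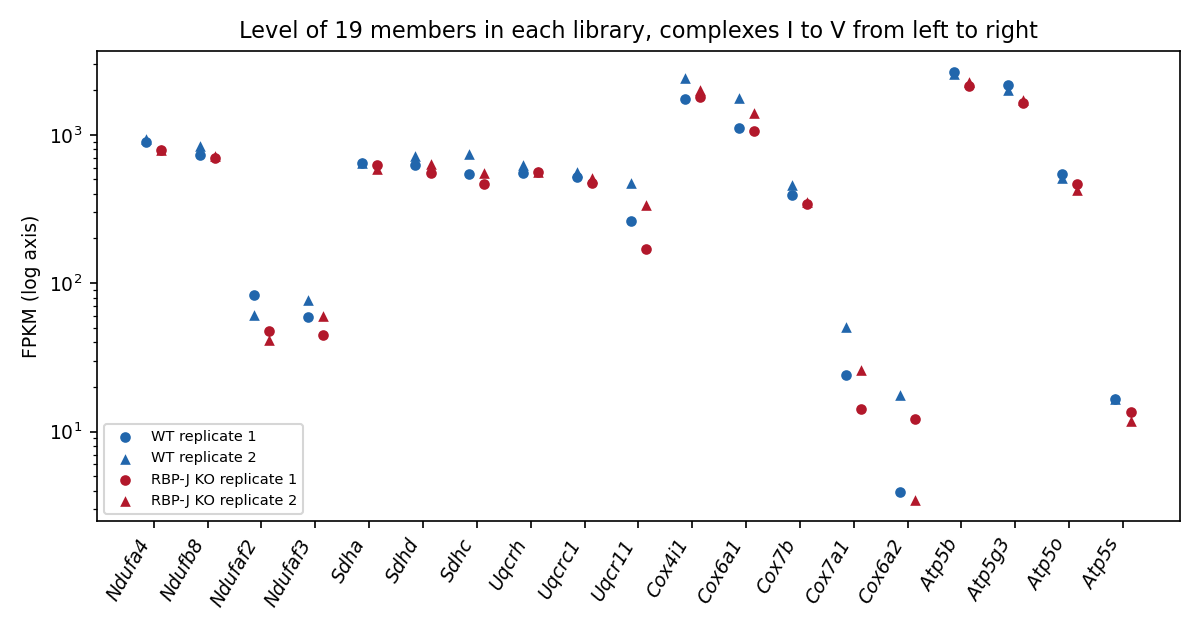
FPKM on a log axis of 19 members in each library, ordered from complex I to complex V, with WT in blue, RBP-J KO in red, circles for replicate 1 and triangles for replicate 2. Atp5b and Atp5g3 stand at 1625 FPKM or more in every library, and the tissue-restricted Cox7a1 and Cox6a2 at 50.6 FPKM or less.

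Neighbouring mitochondrial lists also had small negative medians, with 0 genes past the limma adjusted threshold in each. Over all genes tested, 34.1% were lower and 25.1% higher in both numbers, the background for the counts of each list below. Genes that averaged 100 FPKM or more had 39.4% and 22.4%, with medians of -0.08 and -0.05 in numbers 1 and 2. Several list medians in number 2 were near that value. Medians of these lists were not taken under the other scalings. Of 18 citric acid cycle enzymes, 13 (72.2%) were lower and 0 higher in both numbers, with medians of -0.25 and -0.21. Mdh2, malate dehydrogenase, was at 871 and 791 FPKM in WT against 583 and 667 FPKM in RBP-J KO, and Sucla2, a subunit of succinate-CoA ligase, at 229 and 214 against 172 and 172 FPKM. Electron carrier genes were those of cytochromes c and c1, electron transfer flavoproteins and ubiquinone synthesis. Of the 16 measured, 12 (75%) were lower and 0 higher in both numbers, with medians of -0.32 and -0.11. Coq7, a hydroxylase of ubiquinone synthesis, was at 128 and 117 FPKM in WT against 76.8 and 93.8 FPKM in RBP-J KO, and Pdss1, which makes the side chain, was 1.86-fold lower in number 1 and 1.05-fold higher in number 2.

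Assembly factors outside the prefixes had medians of -0.18 and -0.07 over 23 measured genes, 14 (60.9%) lower and 4 (17.4%) higher in both numbers. Tmem126b, a complex I assembly factor, was at 134 and 114 FPKM in WT against 91.4 and 88.2 FPKM in RBP-J KO, and Taco1, a translational activator of complex IV, at 44.1 and 46.9 against 37.4 and 36 FPKM. Atpif1, the inhibitor of the ATP synthase, was at 1120 and 1408 FPKM in WT against 813 and 1117 FPKM in RBP-J KO. The other 2 measured genes of its list were also lower in both numbers, among them 2010107E04Rik, at 1058 and 1003 FPKM in WT against 948 and 858 FPKM in RBP-J KO. Of 26 carrier and import genes, 14 (53.8%) were lower and 2 (7.69%) higher in both, with medians of -0.28 and -0.05. Slc25a4 and Slc25a3, which carry ADP/ATP and phosphate across the inner membrane, were lower in both numbers. Slc25a4 was at 942 and 976 FPKM in WT against 625 and 759 FPKM in RBP-J KO, and Slc25a3 at 1714 and 1528 against 1154 and 1275 FPKM.

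Mitochondrial ribosomal proteins had medians of -0.17 and -0.06 over 76 genes, 42 (55.3%) lower and 10 (13.2%) higher in both numbers. Mrpl19 alone of this list had an unadjusted limma p under 0.05 (adjusted p = 0.964), at 63.5 and 63.1 FPKM in WT against 38.4 and 42.7 FPKM in RBP-J KO, and Mrpl41 was 1.52-fold and 1.40-fold lower. Regulators of mitochondrial biogenesis had no common direction, with medians of -0.18 and 0.10 over 20 genes. Ppargc1b, a coactivator, was at 4.14 and 3.96 FPKM in WT against 2.19 and 2.44 FPKM in RBP-J KO, whereas Tfam, which packages mitochondrial DNA, was at 53.9 and 47.6 against 58.9 and 62.8 FPKM. Cytosolic ribosomal proteins, compared because they too are abundant genes with short transcripts, had medians of 0.05 and 0.10 over 84 genes. Of these, 12 (14.3%) were lower and 48 (57.1%) higher in both numbers. Rps23 and Rpl26 were lower in both numbers, by 2.12-fold and 1.57-fold in number 1 and by 1.40-fold and 2.41-fold in number 2. Differences between these lists and the respiratory chain were not tested.

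**Figure D4:**
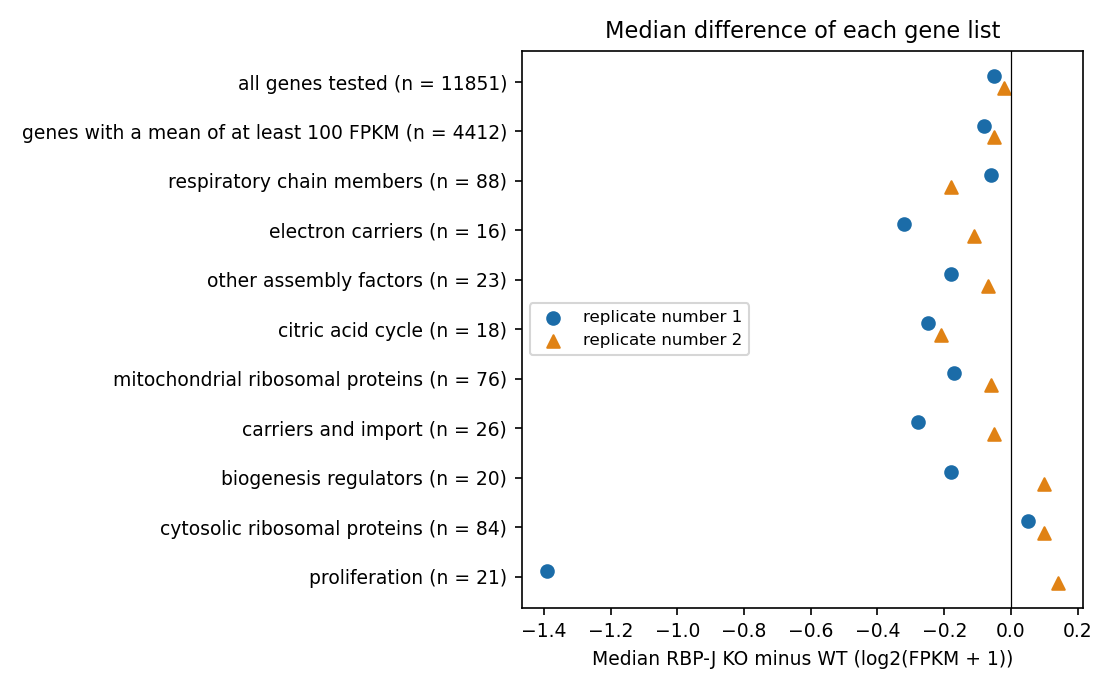
Median RBP-J KO minus WT difference on the log2(FPKM + 1) scale of each gene list, with circles for replicate number 1 and triangles for number 2. The respiratory chain members lie at -0.06 and -0.18, the citric acid cycle at -0.25 and -0.21, and the cytosolic ribosomal proteins at 0.05 and 0.10.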

How the data were processed

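Each library has 1 deposited table, made with TopHat and Cufflinks on mm9 per the submitters' processing notes; versions, annotation and scaling were not given in the sources used here. These deposited values were read as FPKM, the unit Cufflinks writes, since the headers name none. They showed no whole-read steps, so depth is unknown, and how reads shared with processed pseudogenes were assigned is not stated. Those of replicate 1 list 22026 genes and those of replicate 2 list 27583 transcripts of the same symbols; transcript rows were summed per symbol, and 25 symbols turned into dates were restored.

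Log2(FPKM + 1) of the 11851 genes that averaged at least 1 FPKM was fitted with limma 3.58.1 in R 4.3.3 (group only, variance trend, two-sided, Benjamini-Hochberg, threshold 0.05), after a test on simulated data. Differences inside replicate numbers were described without a test. Members, gene lists and alternatives were chosen with earlier results of these data known. Members are named if they are the 2 highest subunits of a complex, have 1 of the 2 largest shared differences per direction, an unadjusted p under 0.05 or a tissue isoform or partner; lists by their 2 smallest p. Figures used Python 3.11.15 and matplotlib 3.10.9.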

Additional observations from a re-analysis of the deposited data

How the results depend on the processing

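In every alternative run, 0 genes and 0 members were past the adjusted threshold. Libraries of equal number departed from their group means together (r = 0.64 over genes), but no label states that the number pairs them. With the replicate number as a block in limma the counts were again 0 and 0. At an unadjusted p under 0.05 there were then 1557 genes and 4 members, against 524 and 1. The block gave limma adjusted p of 0.2 for Cox7a1, 0.225 for Uqcr11 and 0.239 for Ndufaf2. The other single genes rerun, such as Sdhc and Cox7b, had 0.452 to 0.874. Ndufaf2 lost its unadjusted p under 0.05 with no filter, with the highest transcript row and without the variance trend, its difference staying at -0.67, and without WT replicate 1 (-0.45), RBP-J KO replicate 1 (-0.77) or RBP-J KO replicate 2 (-0.58). The medians of complexes I to V were -0.10, -0.05, -0.14, -0.09 and -0.18. Upper-quartile scaling gave -0.04, 0.01, -0.08, -0.03 and -0.12, with 38 members lower and 11 higher in both numbers. Quantile normalization gave -0.04, -0.01, -0.08, -0.02 and -0.13, a member median of -0.09 in number 2, and 40 lower and 10 higher. Counts over all genes were not taken under either scaling. With structural subunits only, complex II had -0.13. Runs without 1 library leave the groups unequal in replicate number, so the replicate difference enters them. Leaving out 1 library gave ranges of -0.24 to 0.00 for all members, -0.25 to 0.00 for complex I, -0.10 to -0.01 for complex II, -0.20 to -0.03 for complex III, -0.31 to 0.07 for complex IV and -0.24 to -0.12 for complex V. Among single genes it gave -0.53 to -0.09 for Sdhc, -0.41 to -0.17 for Cox7b, 0.06 to 0.33 for Ndufa6 and 0.02 to 0.12 for Uqcrc2. The cause was not tested. The unknown depth allows no counting error for low members such as Cox4i2 and Cox6a2.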

Other observations

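For replicate 2, 7 members have several transcript rows, which show how a gene's value was divided in 1 library per group, with no replicate. The first transcript of Cox7a2l held 728 FPKM in WT against 658 FPKM in RBP-J KO, while its second held 13.4 against 0.04 FPKM. Ndufs1, the largest core subunit of complex I, was spread over 4 transcripts. The fourth of these held 11.5% of the gene's FPKM in WT and 20.7% in RBP-J KO, and the first 46.6% and 39.3%. Ndufv3 was divided alike in both, with 90% and 89.7% in its first transcript. Transcripts of a gene share most of their sequence, and the estimates carry no error in the tables.

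The following medians by transcript length are a description without a test. The 44 members at or under the median transcript length were higher in WT replicate 2 than in replicate 1 by a median log2 of 0.30, and the 44 longer ones by 0.12, against 0.10 and 0.06 between the RBP-J KO replicates. In replicate number 2 the RBP-J KO minus WT medians were -0.22 for the short and -0.14 for the long members, and in number 1 they were -0.05 and -0.07. Over all 88 members the SD of the log2 difference between WT replicates was 0.40, beside 0.80 over all genes tested.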
